A study of Mus musculus with 4 samples.

Results

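Liver RNA of aged diabetic mice given astragalus polysaccharide together with metformin was compared with liver RNA of aged control mice. The comparison takes 2 of the 4 arrays of the series, 1 array a side, and covers 13845 of 23462 named genes, those whose probes lay well above background on both arrays. Every group was whole liver of male mice, and each title carries 60 d without saying what the days count from. The control group was natural aging with no drug. The other 3 groups shared a type 2 aging diabetes model: untreated (called diabetic here), given metformin, and given astragalus polysaccharide and metformin (called combination). Strain, age, doses, the way diabetes was produced and the number of mice behind an array do not appear in the labels used here. The combination and control arrays differ in the diabetes model and in both agents, which cannot be told apart in this comparison. The question it answers is how far the liver of treated diabetic mice lay from that of aged mice without diabetes.

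Metformin is a biguanide that lowers glucose output by the liver, and astragalus polysaccharide is a carbohydrate fraction from the root of Astragalus. The liver stores and releases glucose, makes fatty acids, cholesterol and bile acids, secretes most plasma proteins, and detoxifies drugs and steroids through cytochrome P450 enzymes and conjugating enzymes. In mice many of these enzymes differ between males and females, because the pulsed growth hormone secretion of males acts on the liver through the transcription factor STAT5B. Heat shock factor and the transcription factors of the unfolded protein response switch on chaperone genes when proteins misfold in the cytosol or in the endoplasmic reticulum (ER).

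RNA was labelled with Cy5 and hybridized to 1-colour Agilent arrays, all 4 on 1 slide with 1 scan time. Between 51.9% and 56.5% of 56605 probes lay above background, and 2.18% to 5.35% of spots were left out as outliers. With 1 array per group there is no test and no p-value, and each difference is one between single arrays whose number limits its precision. Repeated spots gave a technical SD of 0.10 (log2) for a difference, which holds no spread between mice. Levels are log2 processed signals after centring, where 0 is the 75th percentile of the control array, and sets of 4 levels follow the order control, diabetic, metformin, combination. The labelled tissue was checked on 20 hepatocyte genes, which were above background on every array. Albumin (Alb) stood at 5.02, 4.97, 4.67 and 4.96 and the transcription factor gene Hnf4a at 2.02, 2.42, 2.48 and 2.83. The 18 hepatocyte genes measured on both arrays had a median difference of -0.26, and 1 of them, the fibrinogen gene Fga, was at least 2-fold apart (-1.45). In whole tissue, fewer cells of a type and less RNA per cell cannot be told apart.

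Of the measured genes, 777 had a level at least 2-fold above control on the combination array (5.61%) and 705 a level at least 2-fold below it (5.09%). At 4-fold the counts were 129 and 164, and at 10-fold 25 and 41. The middle 50% of genes differed by -0.29 to 0.33 (log2). Of 23462 named genes, a further 1208 were seen above background on the combination array only and 418 on the control array only. Those with a bound of at least 2-fold numbered 251 and 213. Counts of list members seen on 1 array only, given below without a bound, stand beside the 1208 and 418. The split between higher and lower genes depended on the scale. Quantile normalization gave 503 higher and 911 lower, the 75th percentile without centring gave 485 and 1027, and the spike-in scale gave 1104 and 532. These scales moved the median of all genes by -0.07, -0.19 and 0.17, so gene groups below are read against a median of 0. Without the background filter the counts were 2149 and 1144. In the authors' own values they were 634 and 764, and 1326 of the 1482 genes were 2-fold apart the same way there. Most genes rested on 1 probe: of 289 genes past 2-fold with several probes, 281 had all probes on the same side.

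**Figure D1:**
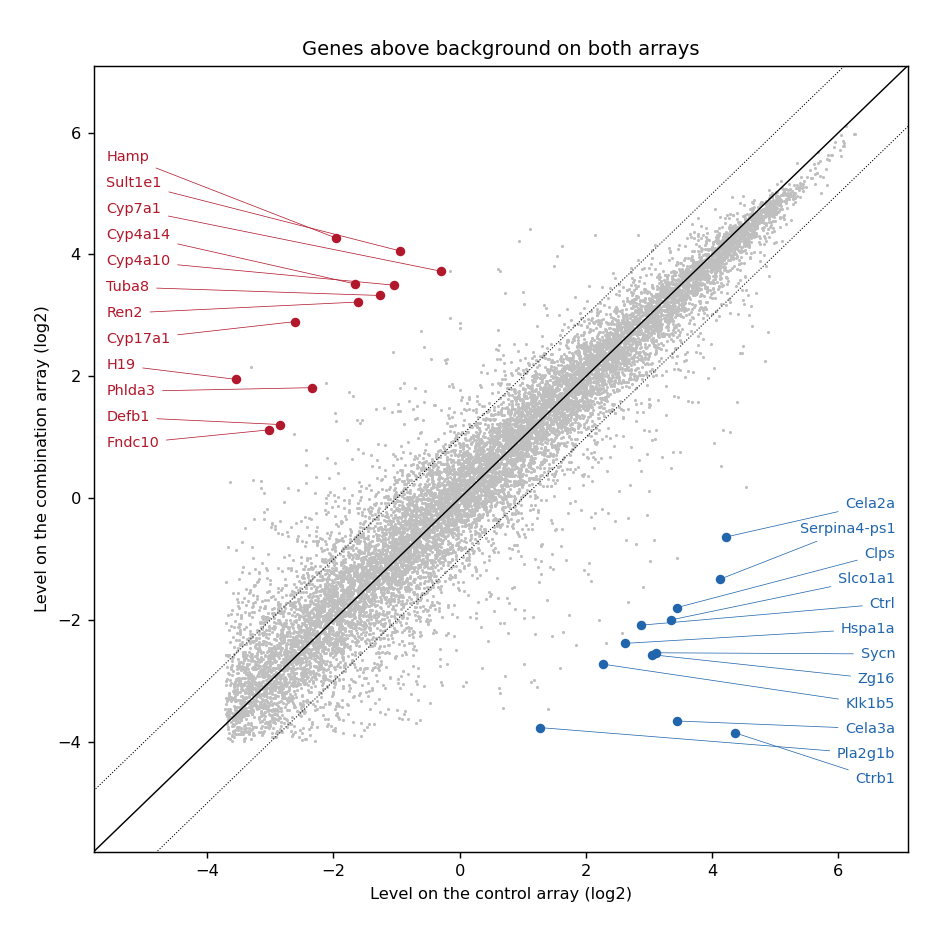
Level of each gene on the control array (x axis, log2) against its level on the combination array (y axis, log2), for the 13845 genes above background on both. The solid line marks equal levels and the dotted lines 2-fold; red points are the 12 highest and blue points the 12 lowest genes by the naming rule, with Hamp and Ctrb1 farthest from the line.

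The gene furthest above control was Hamp, which encodes hepcidin, the hormone that limits iron release into blood. Its levels were -1.95, 2.46, 3.85 and 4.27, a 74.6-fold difference between the combination and control arrays. Next came Cyp17a1, a steroid hydroxylase gene (45.7-fold), the imprinted transcript H19 (44.97-fold), the fatty acid omega-hydroxylase gene Cyp4a14 (36.2-fold) and Sult1e1, whose product sulfates oestrogens (32.1-fold). Ren2, a renin gene, was 28.5-fold higher, the tubulin gene Tuba8 23.9-fold and Cyp4a10 23.2-fold. Phlda3 was 17.8-fold higher, Fndc10 17.6-fold, the defensin gene Defb1 16.7-fold and Cyp7a1 16.2-fold. In all 12 the control array was the lowest of the arrays that gave a level. These genes were chosen for their distance above that array, so a low control level is part of the choice. Cyp4a10 rested on 3 probes (SD 0.37) and the other 11 genes on 1 probe each.

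At the low end stood the pancreatic enzyme gene Ctrb1, with levels of 4.37, 0.80, 2.60 and -3.85 and a 298-fold difference. Of the 12 lowest genes, 8 belonged to the exocrine pancreas list: Ctrb1, Cela3a, Sycn, Zg16, Clps, Pla2g1b, Ctrl and Cela2a. The lowest gene outside that list was Serpina4-ps1, a serpin pseudogene, at 4.13, -1.81, -2.25 and -1.33 (43.9-fold lower). Slco1a1, an organic anion uptake transporter, was 40.5-fold lower. The HSP70 gene Hspa1a was 32.1-fold lower and the kallikrein gene Klk1b5 31.9-fold lower. All 24 genes kept their direction and at least 2-fold under every alternative processing that gave them a value. The naming rule already asked for this in the authors' values, and it took the widest differences. This outcome was therefore largely set by the choice of genes and is not read as a check. Among genes seen on the combination array only, wide bounds belonged to the bile acid and steroid sulfotransferase genes Sult2a2 (at least 202-fold higher), Sult2a1 (at least 162-fold) and Sult2a3 (at least 84.8-fold). Among genes seen on the control array only the widest belonged to 4 trypsinogen genes: Prss2 (at least 382-fold lower), Try5 (at least 296-fold), Try4 (at least 285-fold) and Prss3 (at least 263-fold). A bound divides the brighter signal by whichever is larger on the dim array: the probe's own signal or the lowest signal there that counted as above background. The Sult2a, trypsinogen, Cyp4a and Hspa1 genes are families of close copies, and whether a probe also reads a sister gene was not tested.

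Of 50 gene lists, 4 were described as higher and 13 as lower on the combination array. That description asks for at least 5 measured members, a median at least 0.3 from that of all genes, and at least 2 in 3 members on that side. Counts of members past 2-fold, here and below, stand beside 5.61% of all genes higher and 5.09% lower. The other lists were 32 that met neither description and 1, the islet list, with too few measured genes. The widest shifts were those of the female-biased liver genes (median 2.05), the exocrine pancreas (-5.00), neutrophil genes (-1.52), male-biased liver genes (-1.12) and heat shock genes (-0.88). The descriptions of the exocrine pancreas, Kupffer cell, lymphocyte, neutrophil, male-biased, female-biased, unfolded protein response, heat shock and chemokine lists held under all 9 alternatives, and each of the other 8 was lost under at least 1.

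**Figure D2:**
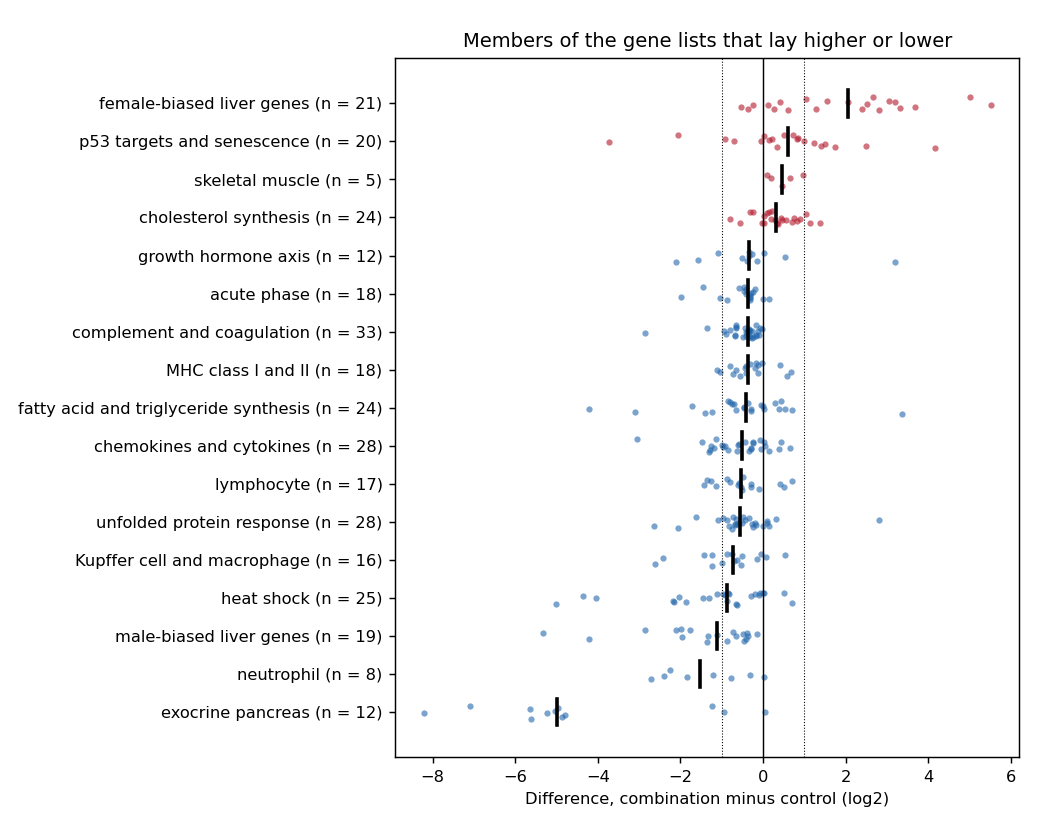
Difference of each measured member (combination minus control, log2, x axis) for the 17 lists described as higher (red) or lower (blue). Each point is a gene, the black bar is the list's median and n is the number of measured members; the points' vertical scatter has no meaning. All 19 male-biased genes and all 33 complement and coagulation genes lie left of 0.

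Genes with a sex bias in mouse liver lay apart in opposite directions. Of 21 measured female-biased genes, 18 were higher on the combination array and 14 by at least 2-fold, beside 5.61% of all genes. Of 19 measured male-biased genes, 19 were lower and 10 by at least 2-fold, beside 5.09% of all genes. On the diabetic array the medians against the same control array were 1.15 for 20 female-biased genes and -0.91 for 16 male-biased genes. On the metformin array they were 1.55 and -0.94, over 20 and 18 genes. These comparisons share the control array, so each is only set beside the others.

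Among male-biased genes, the organic anion transporter Slco1a1 had levels of 3.34, -1.46, -0.82 and -1.997, high on the control array and low on the other 3. The fatty acid elongase gene Elovl3 stood at 2.20, -0.92, 0.12 and -2.003, lowest on the combination array (-4.20 against control). The steroid dehydrogenase gene Hsd3b5 was seen at 3.51 on the control array and not well above background on the diabetic and combination arrays, which makes it at least 182-fold lower. The terminal complement gene C6 stood at 3.354, 2.01, 2.22 and 0.50. The omega-hydroxylase gene Cyp4a12a kept near its control level with metformin, at 4.48, 3.80, 4.16 and 2.50, and was lowest with the combination. Its close copy Cyp4a12b differed by -2.11 and had no level on the diabetic array, where its spots were left out. The growth factor receptor gene Egfr (-1.96), the P450 gene Cyp2u1 (-1.77), C8b (-1.35), the coenzyme A hydrolase gene Nudt7 (-1.34) and the urinary protein gene Mup21 (-1.12) made up the rest of the 2-fold members. The bright members Mup1 (-0.38), Serpina1e (-0.46) and Cyp2d9 (-0.42) lay within 2-fold.

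Among female-biased genes, Cyp17a1 stood at -2.62, 2.71, 1.70 and 2.90, low on the control array alone. Sult1e1 stood at -0.95, 3.54 and 4.06 on the control, metformin and combination arrays, with its diabetic spot left out. Cux2, a transcription factor made in female liver, was above background on all 4 arrays, at -3.10, -0.46, -1.45 and 0.09. The organic anion transporter genes Slc22a26 (3.69) and Slc22a27 (3.32), the flavin monooxygenase gene Fmo2 (3.05), the efflux pump gene Abcc4 (2.82) and the uptake transporter gene Slco1a4 (2.66) were also higher, and so were Cyp2b13 (2.51), Cyp2b10 (2.38) and Cyp3a44 (2.05). A further 6 were seen on the combination array only. Of these, Sult2a2 stood at -5.98, 0.47, 3.65 and 3.93, highest on the combination array and intermediate on the diabetic array. A1bg (at least 5.84-fold), Sult3a1 (at least 19.8-fold) and Sult3a2 (at least 5.03-fold) had higher levels with metformin alone than with the combination: Sult3a1 stood at 2.04 and 0.58. The bright Cyp3a41a (0.13) and Cyp2a4 (0.40), with Cyp2c69 (-0.52), lay within 2-fold.

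**Figure D3:**
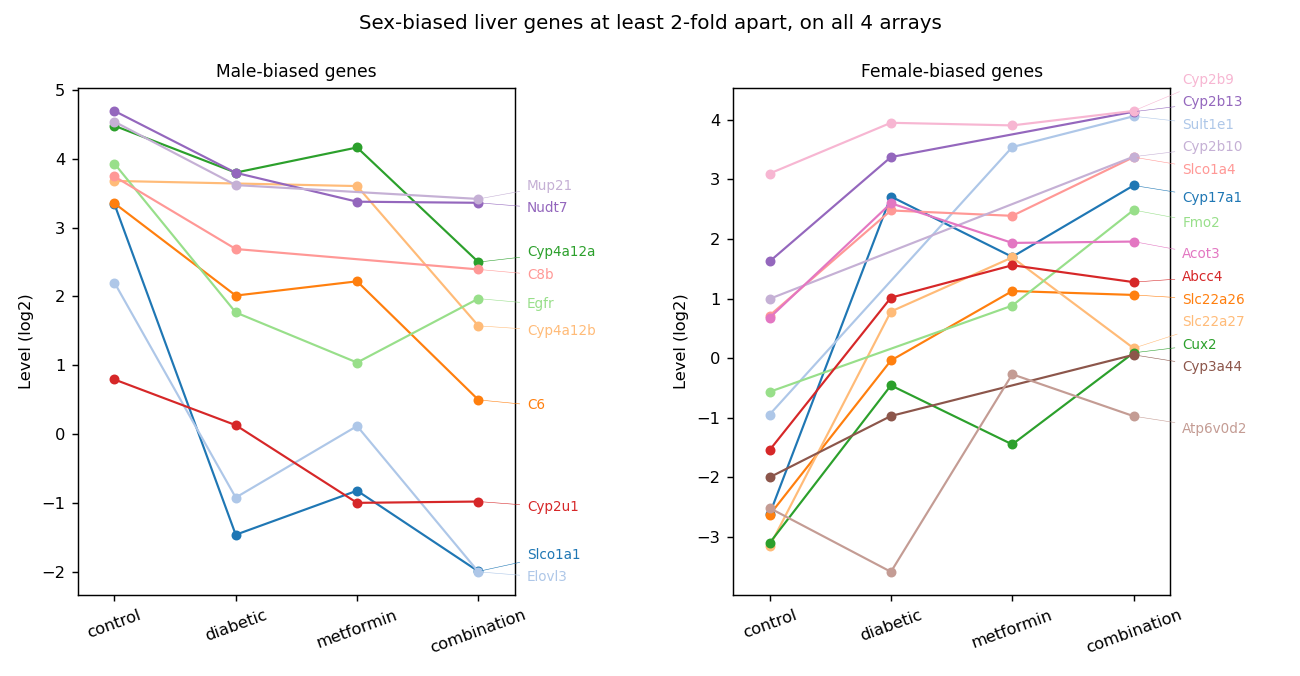
Level (log2, y axis) on each of the 4 arrays for the 10 male-biased and 14 female-biased genes at least 2-fold apart between the combination and control arrays. Lines join the levels of a gene and pass over an array whose spots were left out; Slco1a1 is high on the control array alone and Cyp17a1 low on it alone.

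The growth hormone axis itself was described as lower, with a median of -0.35 over 12 genes and 3 of them at least 2-fold lower, a description that 4 of 9 alternatives ended. Cish, a feedback inhibitor that STAT5 switches on, stood at 2.44, -1.21, 0.23 and 0.86, highest on the control array and lowest on the diabetic. The feedback inhibitor gene Socs2 stood at 3.11, 0.68 and 2.03 on the control, diabetic and combination arrays. Igfals, which stabilises insulin-like growth factor in blood, stood at 1.93, 0.61, 0.44 and -0.19. The growth hormone receptor gene Ghr differed by -0.51, Igf1 by -0.27, Stat5b by 0.03 and Bcl6, a transcriptional repressor gene, by 0.52. The promoter of Cish is shown because it holds the STAT letters TTCNNNGAA 2 times; capitals mark them. It lies at chr9:107296409-107296708 on the plus strand (RefSeq, GRCm38.p6, 250 bases before to 50 after the start).
Cish: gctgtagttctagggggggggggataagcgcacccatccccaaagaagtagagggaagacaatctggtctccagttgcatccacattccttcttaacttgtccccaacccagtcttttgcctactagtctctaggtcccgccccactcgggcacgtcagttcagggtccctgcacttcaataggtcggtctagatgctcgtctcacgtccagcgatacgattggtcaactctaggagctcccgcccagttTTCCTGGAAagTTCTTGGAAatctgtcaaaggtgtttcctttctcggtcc
These letters, searched on both strands, occur in 8.30% of 32851 RefSeq promoters of this length and in 3 of the 12 list genes with a promoter in the table (Bcl6, Cish and Igfals). A match is a description of letters and not of binding. The arrays' grid was built for mm9, so promoters were matched by gene symbol alone.

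Genes of the heat shock response were lower on the combination array, with a median of -0.88 over 25 genes. Of these, 22 were lower and 10 by at least 2-fold, beside 5.09% of all genes. Hspa1a, an inducible HSP70 chaperone gene, stood at 2.62, 2.65, -0.35 and -2.38. Hspa1b, its near-identical neighbour, stood at 4.54, 4.05, 1.33 and 0.18. Hsph1, a nucleotide exchange factor of HSP70, stood at 3.01, 2.27, -0.57 and -1.03. In all 3 the control and diabetic arrays were high and both treated arrays low, lowest on the combination array.

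The same order held for the HSP40 co-chaperone gene Dnajb1, at 4.88, 4.17, 3.15 and 2.72, and for Dnaja1, at 2.72, 2.39, 1.45 and 0.85. The HSP90 co-chaperone gene Chordc1 stood at -0.09, -0.10, -2.33 and -2.27, level between both treated arrays. Hspa4l (-2.03), Stip1 (-1.45), Hsp90aa1 (-1.32) and Hspb8 (-1.12) completed the members at least 2-fold lower. Constitutive and mitochondrial chaperone genes differed less: Hspa8 by -0.88, Hspd1 by -0.09 and Hspa9 by 0.03. The gene of heat shock factor, Hsf1, differed by -0.01 and Hsf2 by 0.50. Over the list the median against control was -0.24 on the diabetic array (24 genes) and -0.84 on the metformin array (25 genes). Beside these values, 20 measured immediate early genes, which respond within minutes to stimuli and handling, had a median of -0.26. Of them 4 were at least 2-fold lower and 1 higher, beside 5.09% and 5.61% of all genes. Another 2 list members were seen on the control array only. Among the lower ones Egr1 stood at 1.68, -1.87, 1.04 and -1.01 and Atf3 at 0.49, -1.67, 0.01 and -1.57. The part of handling was not tested.

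Promoters of Hspa1a and Chordc1 are shown because both genes were low on both treated arrays and hold the heat shock element letters GAANNTTC, in capitals. Hspa1a lies at chr17:34972107-34972406 on the minus strand and Chordc1, with 2 matches side by side, at chr9:18292017-18292316 on the plus strand (RefSeq, GRCm38.p6).
Hspa1a: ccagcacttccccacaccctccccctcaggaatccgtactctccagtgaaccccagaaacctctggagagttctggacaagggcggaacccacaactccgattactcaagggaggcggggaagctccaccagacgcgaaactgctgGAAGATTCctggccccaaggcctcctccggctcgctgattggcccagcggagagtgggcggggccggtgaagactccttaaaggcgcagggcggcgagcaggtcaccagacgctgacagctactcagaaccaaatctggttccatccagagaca
Chordc1: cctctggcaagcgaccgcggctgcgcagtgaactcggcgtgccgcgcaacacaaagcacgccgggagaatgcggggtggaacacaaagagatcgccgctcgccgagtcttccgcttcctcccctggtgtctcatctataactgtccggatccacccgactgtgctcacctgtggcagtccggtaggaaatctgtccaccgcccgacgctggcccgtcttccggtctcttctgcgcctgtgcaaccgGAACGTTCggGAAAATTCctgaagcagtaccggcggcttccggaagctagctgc
Searched on both strands, the letters occur in 7.86% of all 32851 promoters and in 13 of the 22 heat shock genes with a promoter in the table. Among those 13 are Hspa1b, Hsph1, Dnaja1 and Hspb8, which were at least 2-fold lower, and also Hspd1 and Hspb6 (0.69), which were not.

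The unfolded protein response genes were also lower, with a median of -0.55 over 28 genes, 23 of them lower and 4 by at least 2-fold. Derl3, which helps pull misfolded proteins out of the ER, stood at -0.66, 2.64, -1.72 and -3.30, highest on the diabetic and lowest on the combination array. Creld2, an ER stress protein gene, stood at 4.44, 4.56, 3.202 and 2.38. Sdf2l1, a partner of the ER chaperone BiP, stood at 3.69, 4.17, 2.55 and 2.08. All 3 were lower on both treated arrays than on the control and diabetic arrays. The transcription factor gene Xbp1 differed by -1.08 over 2 probes that lay apart (SD 0.85). Within 2-fold were Hspa5, the gene of BiP (-0.88), the neurotrophic factor gene Manf (-0.83), the disulfide isomerase gene Pdia4 (-0.75) and Dnajb9 (-0.96). The pseudokinase gene Trib3, which the stress factor ATF4 controls, went the other way, near 0 on the control array and at 2.10, 2.84 and 2.79 on the others. Atf4 itself differed by 0.10 and Ddit3 by -0.43. The list's median against control was 0.00 on the diabetic array and -0.64 on the metformin array, over 27 genes each. Pancreatic acinar cells are rich in ER chaperones, and the summed signal of the pancreatic genes given below was 278, 37.6, 86.1 and 21.0. Their part in these differences was not tested.

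The promoters of Derl3 and Creld2 are shown because these genes had the widest differences of the list on the low side. Capitals mark the ER stress response element, the letters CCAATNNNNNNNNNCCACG, which both carry on the strand opposite to the one printed. Derl3 lies at chr10:75893148-75893447 on the plus strand and Creld2 at chr15:88819396-88819695 on the plus strand (RefSeq, GRCm38.p6).
Derl3: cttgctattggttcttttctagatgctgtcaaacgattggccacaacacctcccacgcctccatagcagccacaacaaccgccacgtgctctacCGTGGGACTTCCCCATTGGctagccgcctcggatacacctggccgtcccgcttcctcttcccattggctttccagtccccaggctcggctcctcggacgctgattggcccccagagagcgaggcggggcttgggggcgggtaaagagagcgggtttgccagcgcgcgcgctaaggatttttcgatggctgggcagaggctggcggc
Creld2: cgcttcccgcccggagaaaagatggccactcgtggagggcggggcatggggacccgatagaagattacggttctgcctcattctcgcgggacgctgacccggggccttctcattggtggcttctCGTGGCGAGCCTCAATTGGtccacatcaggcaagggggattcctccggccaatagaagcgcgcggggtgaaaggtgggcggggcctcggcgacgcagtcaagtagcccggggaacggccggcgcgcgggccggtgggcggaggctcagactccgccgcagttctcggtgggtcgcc
The element occurs on either strand in 39 of 32851 promoters (0.119%) and in 9 of the 25 list genes with a promoter in the table: Calr, Canx, Creld2, Derl3, Dnajc3, Hsp90b1, Hspa5, Pdia6 and Syvn1. Calr (-0.19), Canx (-0.24) and Hsp90b1 (-0.17) carry it and differed little.

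Exocrine pancreas genes, which encode digestive enzymes, were far lower on the combination array. Of 31 such genes on the array, the numbers above background were 29, 27, 30 and 14 in the usual array order. Of the 12 measured on both, 11 were lower and 10 by at least 2-fold, and another 16 were above background on the control array alone. The elastase gene Cela3a stood at 3.44, -1.20, 1.39 and -3.65, and the lipase cofactor gene Clps at 3.44, -0.59, 1.54 and -1.79. Amylase Amy2b was at least 136-fold lower, carboxypeptidase Cpa1 at least 192-fold and ribonuclease Rnase1 at least 30.9-fold. Each of these genes was highest on the control array. Cela1 stood at 4.28, 3.38, 3.41 and 3.04 and Amy2a5 differed by -0.94, so both remained bright. The trypsin inhibitor gene Spink1 stood at -0.17, 0.86, 3.23 and -0.13 and did not follow the others. Of 8 islet genes 2 were above background on both arrays. The part of pancreatic RNA in other differences was not tested.

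**Figure D4:**
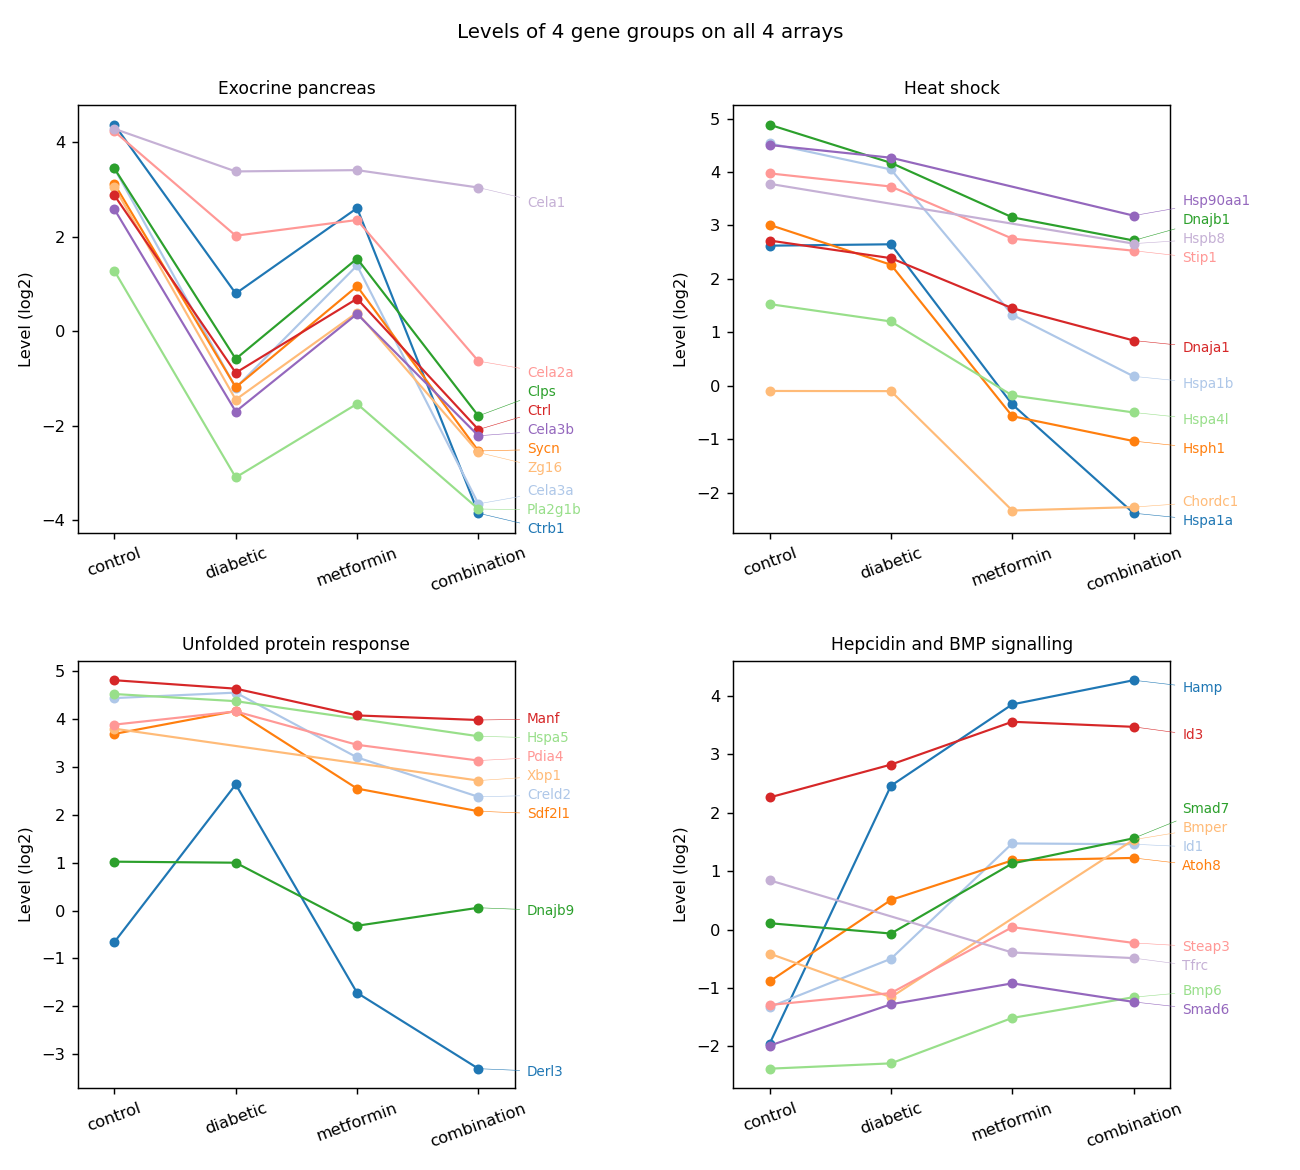
Level (log2, y axis) on the 4 arrays for the 10 exocrine pancreas genes and the 10 heat shock genes at least 2-fold lower, for 8 unfolded protein response genes, and for 10 genes of hepcidin and BMP signalling. Lines join the levels of a gene and pass over an array whose spots were left out; heat shock genes are high on the control and diabetic arrays, and Hamp is lowest on the control array.

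Markers of immune cells were mostly lower on the combination array. Neutrophil genes had a median of -1.52, with 7 of 8 lower, 5 of them by at least 2-fold, and another 6 above background on the control array alone. The calprotectin gene S100a9 stood at 2.97, 1.37, 2.19 and 0.72, lowest on the combination array. The granule protein gene Camp stood at -0.91, -1.21, -2.11 and -3.63, and the protease gene Prtn3 was at least 16.8-fold lower. S100a8 (-2.39), Retnlg (-1.83) and the myeloperoxidase gene Mpo (-1.20) were the other 2-fold members. Of 14 neutrophil genes, 14, 11, 11 and 8 were above background, with a summed signal of 65.3, 51.9, 54.2 and 47.5 in which Csf3r (0.03) and Lcn2 (-0.33) were the brightest.

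Kupffer cell and macrophage genes had a median of -0.73, with 14 of 16 lower and 5 by at least 2-fold. The scavenger receptor gene Marco stood at 2.13, 1.88, 0.52 and -0.48, and Cd163, which takes up haemoglobin, at 2.26, 1.61, -0.21 and -0.17. Both were low on both treated arrays. Others were lowest on the combination array without being low with metformin alone: Adgre1, an adhesion receptor gene of macrophages, stood at 2.11, 1.28, 2.23 and 0.68, and the complement gene C1qa at 4.10, 3.56, 4.09 and 3.46. Folr2 (-1.23) and the transcription factor gene Spic (-1.23) were also at least 2-fold lower, and Clec4f lay at -0.999, just within 2-fold. The summed signal of the 20 genes was 152, 112, 152 and 97.2. Trem2, a receptor gene of lipid-laden macrophages, differed by 0.53, and Gpnmb was above background on the 3 diabetic-model arrays and not on the control array, at -3.13, -0.33 and -3.01.

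Lymphocyte genes had a median of -0.53, with 14 of 17 lower and 4 by at least 2-fold: Gzma (-1.43), Cd8a (-1.37), Mzb1 (-1.26) and Ptprc (-1.15). Their summed signal was 9.15, 5.06, 15.2 and 7.03, highest with metformin alone. Chemokine and cytokine genes had a median of -0.51, with 22 of 28 lower and 7 by at least 2-fold. The neutrophil chemokine gene Cxcl1 stood at 4.17, 0.99, 1.84 and 1.13, high on the control array alone. Ccl2, which draws monocytes, stood at -0.07, -1.89, 2.06 and -1.26, and its receptor gene Ccr2 at -0.92, -2.04, 0.65 and -2.19, both high with metformin alone. Tnfrsf1b (-1.48), Ccl4 (-1.28) and the NF-kappa-B inhibitor gene Tnfaip3 (-1.14) were at least 2-fold lower, while Il1b differed by 0.14. MHC genes had a median of -0.37 over 18 genes, 2 of them at least 2-fold lower (H2-DMb1 -1.12, Psmb9 -1.05), and 4 of 9 alternatives ended that description. The sinusoidal endothelial list, which shares the non-parenchymal fraction with these cells, had a median of 0.09 over 15 genes and none 2-fold apart. The part of cell numbers in these differences was not tested.

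Plasma protein genes were slightly lower. All 33 measured complement and coagulation genes lay below 0, with a median of -0.37, but only C6 and C8b passed 2-fold. The acute phase list had a median of -0.37 over 18 genes, with 17 lower. Of these Saa2 (-1.04), Fga (-1.45) and the feedback inhibitor gene Socs3, at 3.11, 0.56, 1.66 and 1.11, passed 2-fold. These genes are bright, and among the 1385 brightest of all genes the median was -0.135 (log2), against 0.00 in the authors' values, where neither list was described as lower. Haptoglobin (Hp, -0.42), C3 (-0.32) and prothrombin (F2, -0.08) show the usual size.

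Of 24 measured glycolysis genes, 6 were at least 2-fold lower on the combination array, beside 5.09% of all genes, and none was 2-fold higher. The members differed by -3.24 to 0.41. Pklr, the liver pyruvate kinase gene, stood at 1.48, 0.30, 0.34 and -1.16 (6.21-fold lower), with the diabetic and metformin arrays between the control and combination arrays. Hk2 (-1.65), Pfkfb3 (-1.52), Pkm (-1.28) and Pfkfb1 (-1.02) were also among those lower. The glycolysis median was -0.28, which met no description. The shared middle steps differed little: Gapdh by -0.16 and Tpi1 by -0.06, and the glucose transporter gene Slc2a2 by 0.41.

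Of 17 gluconeogenesis genes, 1 was 2-fold apart, beside 5.61% of all genes higher and 5.09% lower. It was the coactivator gene Ppargc1a, at 1.34 on the control, 0.98 on the diabetic and 3.17 on the combination array. The enzyme genes Pck1 (-0.14), G6pc (-0.51), Fbp1 (-0.24) and Pcx (-0.30) lay within 2-fold. In glycogen metabolism Ppp1r3c, which brings phosphatase to glycogen, stood at -1.40, 0.17, 1.65 and 0.72 and was the only one of 13 genes past 2-fold. In insulin and leptin signalling, the inhibitor genes Socs1 (-2.21) and Socs3 (-1.997) and the phosphatase gene Ptpn1 (-1.07) were lower and Trib3 (2.80) higher, while Insr (-0.49), Irs1 (0.50), Irs2 (-0.65) and Akt2 (-0.11) lay within 2-fold. Of 19 measured AMPK, mTOR and metformin transport genes, 1 was 2-fold apart, beside the same shares of all genes. It was the cation transporter gene Slc22a3 (1.47). The AMPK subunit gene Prkaa1 differed by 0.39.

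Fatty acid and triglyceride synthesis genes had a median of -0.40 over 24 genes, with 16 lower and 5 by at least 2-fold, a description that 3 of 9 alternatives ended. Pnpla3, a lipase-like gene that insulin and carbohydrate induce, stood at 1.17, 0.64, 0.37 and -1.94, low on the combination array alone. The elongase gene Elovl6 stood at 3.40, 3.35, 2.24 and 1.67. The acetyl-CoA carboxylase gene Acaca was among the members at least 2-fold lower. Fatty acid synthase (Fasn) differed by -1.24. Scd1, the stearoyl-CoA desaturase gene, had its spots left out, and with them kept it differed by -4.18. Mogat1, which makes diacylglycerol, went the other way, at -1.69, 1.82, 3.12 and 1.68, low on the control array alone.

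Among lipid droplet genes, Cidec, which enlarges droplets, stood at 2.24, 2.59, 2.61 and 0.66 and the lipase inhibitor gene G0s2 at 0.85, 2.49, 2.73 and -0.43. Both were low on the combination array alone. Fitm1 was also lower (-1.19), and the droplet coat gene Plin4 stood at -0.71, -0.51, 1.94 and 1.81, high on both treated arrays. The list's median was -0.04 over 16 genes.

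Targets of the fatty acid receptor PPAR-alpha differed in both directions around a median of -0.04 over 35 genes. Of these, 9 passed 2-fold above control and 3 below it, beside 5.61% and 5.09% of all genes. Cyp4a14 stood at -1.66, 3.15, 3.72 and 3.52, low on the control array alone. Cyp4a31 had a mean difference of 3.90, but its 2 probes lay far apart (SD 2.72). The peroxisomal enzyme gene Ehhadh (1.06), the acyl-CoA thioesterase genes Acot3 (1.28) and Acot4 (1.15), the carnitine acetyltransferase gene Crat (1.13) and Vnn1 (1.33) were higher. Other genes under the same receptor were lower: the hormone gene Fgf21 stood at -0.07, 1.44 and -2.49 on the control, metformin and combination arrays, and the pyruvate dehydrogenase kinase gene Pdk4 at 3.004, 0.72, 2.71 and 1.63.

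In bile acid metabolism 5 of 23 genes passed 2-fold above control and 2 below it, with a median of -0.01. The shares of all genes were 5.61% and 5.09%. Cyp7a1, whose enzyme sets the pace of bile acid synthesis, stood at -0.30, 3.36, 2.66 and 3.72, low on the control array alone. The bile acid uptake gene Slc10a2 stood at 3.44, 0.12, 1.53 and -0.98 over 2 probes (SD 0.31), and Slco1a1 was low beside it. The export genes Abcc4, at -1.54, 1.02, 1.56 and 1.28, and Slc51b, at -2.05, -0.06, 1.45 and 0.09, were low on the control array alone, while the partner of the latter, Slc51a, was seen on the control array only (at least 4.95-fold lower). The steroid reductase gene Akr1d1 was higher (1.21).

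Cholesterol synthesis genes had a median of 0.32 over 24 genes, with 19 higher and 3 by at least 2-fold, and 3 of 9 alternatives ended the description. The squalene epoxidase gene Sqle stood at 0.71, -0.19, 2.54 and 2.09, the lanosterol demethylase gene Cyp51 at 0.17, -0.79, 1.63 and 1.19, and the regulator Srebf2 at -1.52, -1.40, -0.35 and -0.39. In all 3 both treated arrays were high. Against control the list's median was -0.42 on the diabetic array (22 genes) and 0.51 on the metformin array (23 genes).

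**Figure D5:**
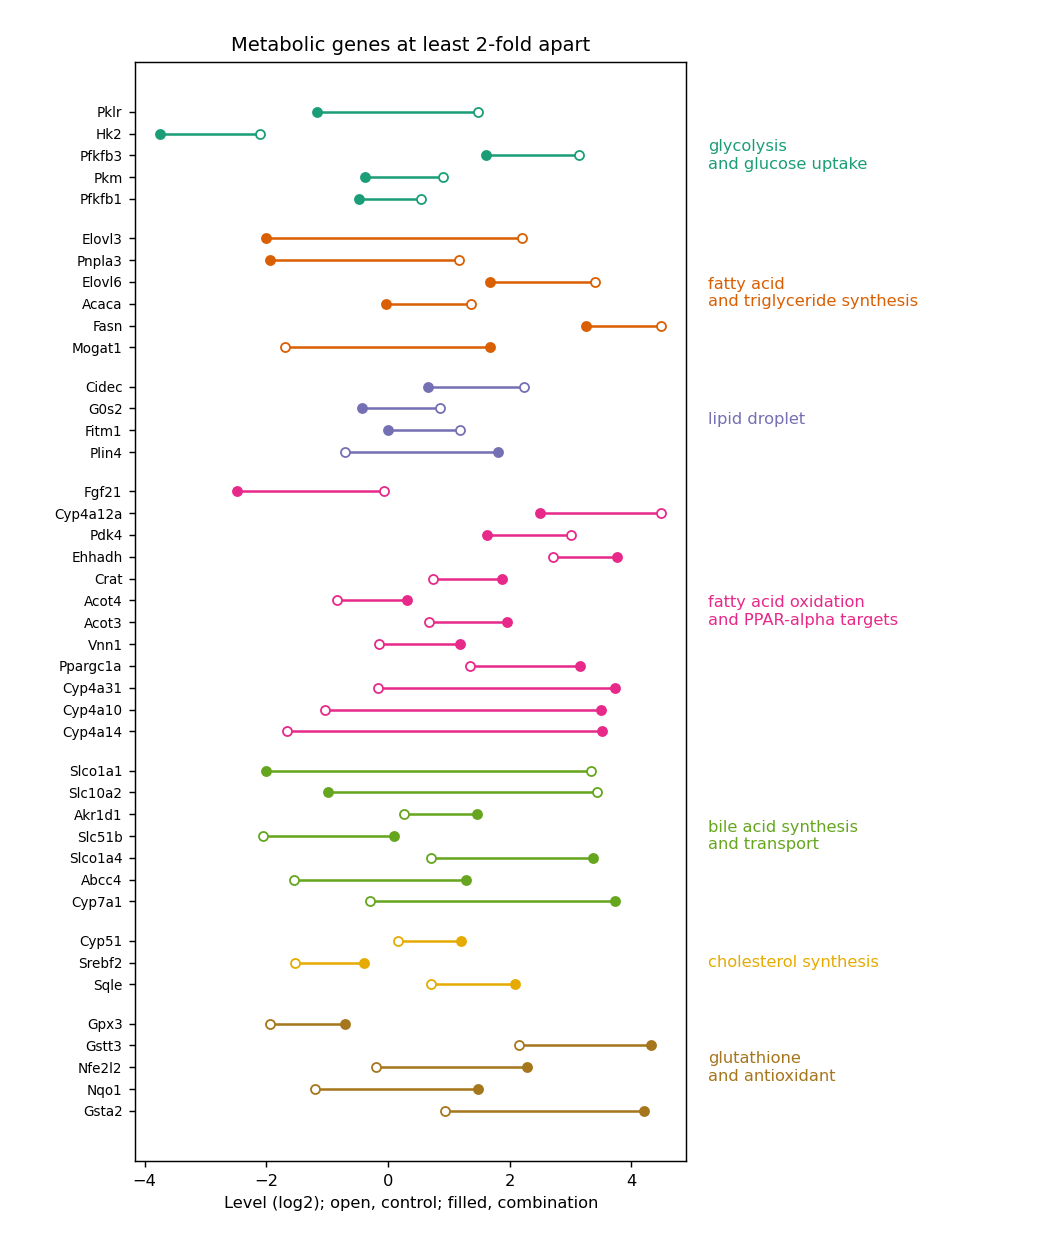
Level (log2, x axis) on the control array (open points) and the combination array (filled points) of genes at least 2-fold apart in 7 metabolic lists, with 1 line per gene and colours for the lists. A gene in several lists is drawn in the first of them. Every glycolysis gene shown lies lower on the combination array and every cholesterol synthesis and glutathione gene higher.

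Detoxification genes with the widest differences encode conjugating enzymes. Of 21 sulfotransferase list genes, 11 were measured on both arrays and 7 were seen on the combination array only. Sult2a1 stood at -3.67, 3.56 and 3.67 on the control, metformin and combination arrays. Sult2a4 (at least 75.2-fold) and Sult2a5 (at least 66.5-fold) were seen on the combination array only, and Sult2a7 was 2.44 (log2) higher. Sult5a1 (-2.08) and Sult2a8 (-1.06) were lower. The glutathione transferase gene Gsta2 stood at 0.93, 3.72, 4.15 and 4.22, and the quinone reductase gene Nqo1 at -1.20, 0.65, 1.67 and 1.48, both low on the control array alone. Their regulator gene Nfe2l2, which encodes NRF2, stood at -0.20, 2.26, 1.70 and 2.28 on 1 of its 2 probes. Mgst2 was seen on the combination array only against control (at least 45.3-fold), and Gstt3 (2.18) and Gpx3 (1.22) were higher, yet the median of 35 glutathione and antioxidant genes was 0.03.

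Of 34 measured P450 genes, 9 passed 2-fold above control and 2 below it, beside 5.61% and 5.09% of all genes. Their median was 0.04. Cyp1a1, the target gene of the aryl hydrocarbon receptor, stood at -3.27, -2.78 and 0.30 on the control, diabetic and combination arrays, its metformin spots left out. Cyp2g1 stood at 0.01, 0.03, 1.85 and 2.88, and Cyp2c50 at 2.82, 2.02, 3.01 and 4.33, both highest on the combination array. Cyp1b1 (1.82) and Cyp2j6 (1.04) were higher and Cyp2d40 (-1.58) lower. For 10 of the 44 P450 genes the spots were left out as outliers. The glucuronosyltransferase genes Ugt1a10 (1.81) and Ugt1a6a (1.74) were 2 of 11 past 2-fold. Among steroid enzymes Cyp21a1 (-1.92), Srd5a1 (-1.42), Hsd3b2 (-1.38) and the oestrogen receptor gene Esr1 (-1.34) were lower, and the cholesterol carrier gene Star (1.34) higher.

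The iron and hepcidin list, to which Hamp and genes of the bone morphogenetic protein (BMP) pathway that controls it belong, met no description, with 14 of 24 measured genes higher and a median of 0.22. In it 8 genes were at least 2-fold higher, beside 5.61% of all genes, and 1, the transferrin receptor gene Tfrc (-1.33), was 2-fold lower. The ligand gene Bmp6 stood at -2.38, -2.29, -1.51 and -1.16. The target genes Id1, at -1.33, -0.50, 1.47 and 1.46, and Smad7, at 0.11, -0.07, 1.13 and 1.56, were high on both treated arrays. Atoh8 stood at -0.89, 0.51, 1.18 and 1.23, Id3 differed by 1.21, the BMP-binding gene Bmper by 1.95 and the coreceptor gene Hjv by 0.999, just within 2-fold. Iron storage and export genes lay within 2-fold: Fth1 (-0.13), Ftl1 (-0.12) and Slc40a1, which encodes ferroportin, the iron exporter that hepcidin blocks (0.29). Hamp rested on 1 probe, and its close copy Hamp2 had its spots left out and differed by 3.03 with them kept.

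Targets of p53 had a median of 0.61 over 20 genes, with 15 higher, 6 of them past 2-fold, and 2 past 2-fold on the low side, and 3 of 9 alternatives ended the description. The members differed by -3.74 to 4.16. Phlda3 stood at -2.34, 2.82, 2.83 and 1.81, Zmat3 at -1.07, 1.14, 1.83 and 1.41, and Mdm2, whose product degrades p53, at 0.07, 1.98, 2.30 and 1.47. All 3 were low on the control array and somewhat lower on the combination array than with metformin alone. Ccng1 (1.74), Trp53inp1 (1.51) and the stress cytokine gene Gdf15 (1.24) were higher, and the death receptor gene Eda2r was seen on the combination array only against control (at least 17.4-fold). Among the 2 low members Gadd45a, a growth arrest gene, stood at 1.29, 0.40, 0.82 and -0.76, lowest on the combination array. Cell cycle genes had a median of -0.11 over 31 genes, with 20 lower, 5 of them by at least 2-fold, and 3 at least 2-fold higher. Another 5 were seen on the control array only and none on the combination array only. Mcm6 stood at 1.02, -2.80, 2.25 and -1.96 and Mki67 at 0.55, -1.99, 1.06 and -1.84, while Cenpm stood at -0.16, -2.28, 2.97 and 2.95.

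Basic cell machinery lay close to the median of all genes. No member passed 2-fold among 43 oxidative phosphorylation genes (median -0.08, from -0.34 to 0.15), 44 cytosolic ribosome genes (-0.14, from -0.27 to 0.16), 30 proteasome genes (0.00, from -0.21 to 0.46) or 35 urea cycle and amino acid breakdown genes (0.12, from -0.45 to 0.80). Of 33 autophagy and lysosome genes 1 passed it, the kinase gene Ulk2 (-1.15). The lists with no such member are bright, with median control levels of 4.47, 4.71, 4.06 and 4.22. Of the 1385 brightest of all genes 1.16% were 2-fold apart, so the lack of such members is not read as a trait of these lists. Scales that shift all genes also turn the sign of these medians, so no direction is read from them. The skeletal muscle list was described as higher, with a median of 0.46 over 5 dim genes and none 2-fold apart, and 2 of 9 alternatives ended that.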

How the data were processed

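The deposited scanner files hold spot intensities that, per the file headers, came from Feature Extraction 11.5.1.1 with an mm9 grid; the submitters' processing notes give version 10.7 instead. The processed signal used here is an intensity already corrected for background by that software. The authors' deposited value table holds log2 values, whose columns have a common median of 7.84 and whose normalization method the labels do not name. They tracked each array's log2 processed signal with slopes of 0.986 to 1.01.

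Outlier spots were left out, and the log2 signals of a probe's spots were averaged. The control array's 75th percentile was then taken off the levels of every array, which leaves differences unchanged. Probes were taken as above background with 50% or more of their spots marked so. Gene differences, means over probes above background on both arrays, were centred on the median gene, which took 0.29 (log2) off the combination array's signals. Accessions named 33767 of 56605 probes (59.7%) through the RefSeq table of GRCm38.p6, and the other 22838 probes enter no gene count. Python 3.11.15, numpy 2.4.6 and pandas 2.3.3 were used, with limma 3.58.1 in R 4.3.3 for normexp and quantile normalization. The computation was tested on simulated data.

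Members and lists were chosen with earlier results of these data known. Named genes are the 12 highest and 12 lowest among genes with a plain symbol, a brighter level above the median (0.57), probes of the same sign and at least 2-fold the same way in the authors' values. To these come the 4 largest bounds each way and, in each list, members at least 2-fold apart or with such a bound, otherwise the 4 furthest from 0, and the liver genes. A few genes that the rule names are not reported here. Some further list members within 2-fold are given to show the spread of their list.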

Additional observations from a re-analysis of the deposited data

How the results depend on the processing

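Each count and list was recomputed under 9 alternatives: outlier spots kept, quantile normalization, the authors' values, the 75th percentile without centring, the spike-in scale, normexp, no filter on background, genes above background on all 4 arrays, and the brightest probe of a gene. No median of a described list changed sign. Genes at least 2-fold lower outnumbered those higher with quantile normalization (911), the authors' values (764), the 75th percentile (1027) and normexp (541), which turns the order of the main counts. Genes at least 2-fold higher numbered 503 with quantile normalization, 485 with the 75th percentile, 515 with normexp and 2149 with no filter on background, against 777, and genes at least 2-fold lower numbered 1144 with no filter, against 705. Lists described as higher fell from 4 to 1 with quantile normalization and 1 with the 75th percentile. Lists described as lower numbered 26 with the 75th percentile, 8 with the spike-in scale and 8 with no filter, against 13. The 75th percentile and spike-in scales shift every gene by a constant, and with no filter dim probes enter. The cause for quantile normalization and normexp was not tested. Counts of genes seen on 1 array only could not be formed with no filter, with the brightest probe or with all 4 arrays required. Values of the 12 highest and 12 lowest named genes under an alternative were set against 1 cutoff, the technical SD of a difference (0.095). Of these values, 89 moved by no more than it and 125 by more. The 75th percentile and spike-in scales shift every gene by more than this cutoff. No paired analysis was possible because each group has 1 array, and no array could be left out. The share of genes 2-fold apart varied with level: it was 10.8% among the 1385 dimmest, 18.7% among 1385 around a level of -1.39 and 1.16% among the 1385 brightest.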

Other observations

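Imprinted growth genes were higher on the combination array in 5 of 20 measured cases by at least 2-fold, beside 5.61% of all genes and a list median of 0.08. In the array order control, diabetic, metformin, combination, H19 stood at -3.54, 1.25, 2.86 and 1.95. The maternally expressed transcript Meg3 stood at -2.35, -4.20, 1.15 and -0.34, lowest on the diabetic array, and the cell cycle inhibitor gene Cdkn1c at -0.10, 1.11, 2.17 and 1.83. The noncoding transcript Rian differed by 1.28 and the decarboxylase gene Ddc by 1.07, and all 5 were highest with metformin alone. The growth factor gene Igf2 was at least 12.6-fold and Dlk1 at least 4.43-fold higher, both not well above background on the control array. Of 777 measured long noncoding RNAs, 75 were at least 2-fold higher and 48 lower, beside 5.61% and 5.09% of all genes. These shares rise at dim levels: of 1385 genes around a level of -1.39, 141 were higher and 118 lower. The noncoding RNAs were not matched for level, so no excess is read from their counts.

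Among genes for secreted liver hormones, Inhbe stood at 1.46, 2.09, 2.65 and -0.40, low on the combination array alone, and Inhbc (-1.53), Enho (-1.39) and Obp2a (-3.14) were also at least 2-fold lower. Interferon response genes had a median of -0.20 over 31 genes. Of these 1 was at least 2-fold higher and 2 lower, beside 5.61% and 5.09% of all genes. Another 1 was seen on the control array only. The higher one, the deconjugating enzyme gene Usp18, stood at -0.23, 2.50, 2.81 and 2.27, low on the control array alone. In the clock, the repressor gene Nfil3 stood at 2.86, 1.30, 1.57 and 0.44, Per2 differed by -1.06 and Ciart by 1.99, while the core genes Arntl (0.77), Clock (0.48), Dbp (-0.07) and Nr1d1 (0.17) lay within 2-fold. Red cell genes had a median of -0.27 over 9 genes, with the anion exchanger gene Slc4a1 at 1.25, -3.11, -1.30 and -1.37. Matrix genes Col1a1 (-1.31) and Col3a1 (-1.26) were lower and the fibrillin gene Fbn1 (1.032) higher, beside a list median of -0.25 over 21 genes. The bile duct genes Krt19 (-2.38), Tff2 (-2.33) and Epcam (-1.496) were lower among 9 measured, and whether other cells supply these 3 transcripts was not tested. Probes with no gene name gave 523 higher and 390 lower of 8650 measured.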
